A study of Homo sapiens with 9 samples.

Results

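The 9 genes described here encode feedback inhibitors of the receptor, RAS and ERK signalling chain: the dual-specificity phosphatases DUSP4, DUSP5 and DUSP6, the Sprouty proteins SPRY1, SPRY2 and SPRY4, and the Spred proteins SPRED1, SPRED2 and SPRED3. They were chosen by gene symbol, and 17 probes carried one of these symbols, out of 20046 genes with at least 1 probe on the array. Expression was measured by hybridising total RNA to 9 Illumina bead arrays, 3 for each of 3 lines of H3122, a human lung adenocarcinoma line. All 3 lines carry an EML4-ALK fusion (labelled E13;A20), which joins the kinase domain of the receptor ALK to part of EML4. H3122 Parental cells were sensitive to the ALK inhibitors PF1066, another name of crizotinib, and X-376. H3122 PF1066R cells (also labelled CR) were isogenic and resistant to PF1066, and H3122 X376R cells (also labelled XR) were isogenic and resistant to X-376. Each kind of resistance is thus seen in 1 line. The sources used here do not say if such a line was 1 clone or a pool, if the medium held inhibitor when cells were lysed, or if the samples of 1 line were separate cultures. The p-values therefore speak only to the variation among these 9 samples, and part of that may be technical.

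Receptor tyrosine kinases, fusion kinases such as EML4-ALK among them, activate RAS and then the kinases RAF, MEK and ERK. Active ERK raises transcription of several of its own inhibitors. DUSP4, DUSP5 and DUSP6 remove phosphate from the activation loop of ERK. Sprouty proteins act further up, between receptor and RAF, and Spred proteins carry neurofibromin, which switches RAS off, to the membrane. Because many of these genes are induced by ERK, their mRNAs are widely used as a readout of the activity of this pathway. ERK activity itself was not measured here.

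The deposited table gave 1 signal per probe and array for 47322 probes, on a linear scale with no background subtracted as far as its lowest value of 60.4 shows. Parental arrays were the brightest before normalization, with a mean signal over probes of 254 ± 37.9 units (SD, n = 3), followed by PF1066R arrays with 201 ± 30.3 and X376R arrays with 173 ± 9.09. Background on an array was set at the highest of 92 control probes, and 35.9% to 65.7% of the probes exceeded it. Signals were background-corrected, quantile-normalized and put on the log2 scale, on which all levels below are given. A limma fit over 13769 genes compared each resistant line with Parental and X376R with PF1066R, and a gene was called at a Benjamini-Hochberg adjusted p under 0.05. After normalization arrays of a line correlated with r of 0.980 to 0.989 and arrays of different lines with r of 0.929 to 0.963. The number of arrays limits the precision, and the median standard error of a change was 0.118. ALK itself was higher in PF1066R than in Parental by 1.97 ± 0.12 (SE), with an adjusted p of 4.8e-09, and in X376R differed by -0.19 ± 0.12, with an adjusted p of 0.254. Of 9 epithelial and lung markers, 8 were above background on all 9 arrays. Marker signals were summed before normalization, so the sums also carry the brightness of the arrays. For these 9 they ran from 12628 to 17250 in Parental, 10136 to 16427 in PF1066R and 7668 to 10377 in X376R. In the fit 3 of the 9 were called higher and 1 lower in PF1066R, with a median change of 0.05. In X376R 3 were called higher and 2 lower, with a median of 0.03. Among all genes tested, 9.09% and 13.9% were called higher and 9.37% and 14.2% lower. Of 6 fibroblast markers 1 (COL1A1) was above background on all 9 arrays and PDGFRB on none, with sums of 577 to 649, 536 to 608 and 594 to 644. Of 4 leukocyte markers with a probe 2 (CD14 and CD68) were above background on all 9 arrays and CD3E on none, with sums of 449 to 559, 462 to 564 and 424 to 478. Of 4 endothelial markers 0 were above background on all 9 arrays and KDR on none, with sums of 332 to 379, 373 to 510 and 476 to 519. Some markers of other cell types were called in the fit. CDH5, the endothelial cadherin, was higher in both resistant lines, by 1.38 (adjusted p = 1.02e-06) and 2.21 (adjusted p = 1.2e-09), while PECAM1, from the same list, differed by -0.02 and -0.06 and was not called. Of the fibroblast markers, the collagen gene COL3A1 was higher in PF1066R by 0.34 (adjusted p = 0.0386), and COL1A1 and LUM were higher in X376R by 0.81 (adjusted p = 7.12e-05) and 0.51 (adjusted p = 0.0217). The part of these markers in the results below was not tested.

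Most of these inhibitors were lower in the resistant lines, and 5 of them were lower in X376R than in PF1066R. In PF1066R 5 of the 9 genes were called lower than in Parental (DUSP4, DUSP5, DUSP6, SPRED1 and SPRED2), and 1, SPRY4, was called higher. Among all genes tested, 9.37% were called lower and 9.09% higher in that comparison. In X376R 8 of 9 were called lower than in Parental, all but SPRED3, against 14.2% of all genes called lower and 13.9% called higher. Between the resistant lines 5 were called lower in X376R (DUSP5, DUSP6, SPRY1, SPRY2 and SPRY4), against 8.08% of all genes called lower and 7.92% called higher. The median change of the 9 was -0.43, -0.89 and -0.41 in the order of these comparisons, and that of all genes tested was -0.01, -0.01 and -0.00. The first and second comparison share the Parental arrays, so they are not independent of each other. In bulk RNA, fewer cells that express a gene and less RNA per cell cannot be told apart.

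**Figure D1:**
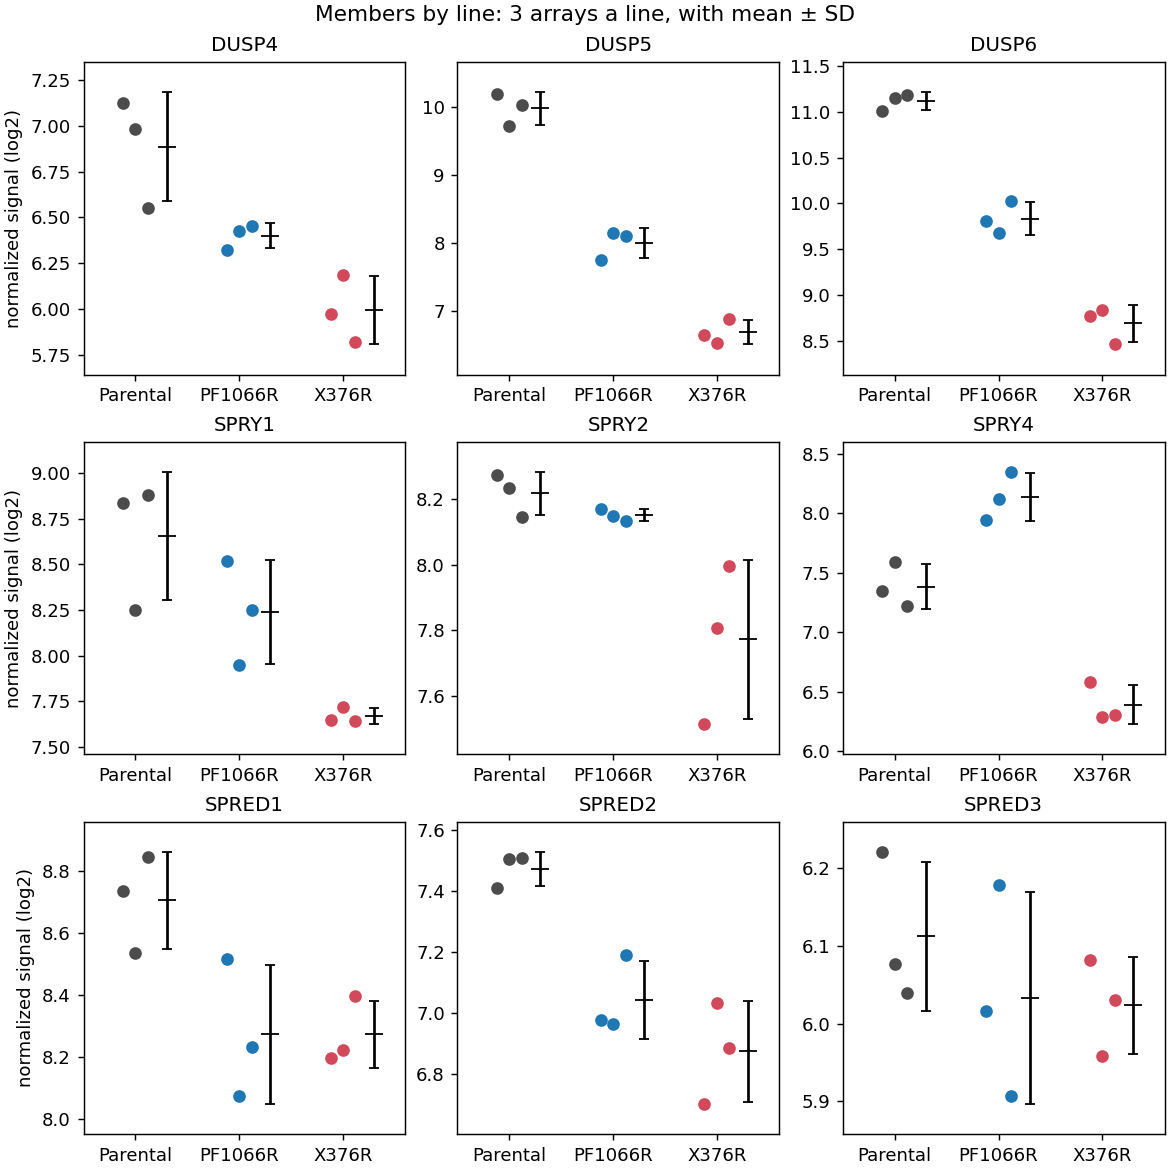
Normalized signal (log2, vertical axis, with its own range in each panel) of the 9 genes on the 3 arrays of Parental, PF1066R and X376R cells. Points are arrays, and bars beside them are the mean ± SD of 3 arrays. DUSP5 and DUSP6 step down from line to line without overlap, and SPRY4 is highest in PF1066R and lowest in X376R.

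DUSP5 and DUSP6 had the largest changes from Parental of the 9 genes. DUSP5, a phosphatase of the nucleus that acts on ERK alone among the MAP kinases, was at 10.19, 9.72 and 10.02 on the Parental arrays, at 7.75, 8.15 and 8.10 in PF1066R and at 6.66, 6.54 and 6.89 in X376R. The 3 lines did not overlap, with Parental highest and X376R lowest. The signals before any processing showed the same order, with 1012 to 1734 units in Parental, 240.0 to 276 in PF1066R and 103 to 117 in X376R. DUSP5 was 3.94-fold lower in PF1066R than in Parental (change -1.98 ± 0.14, SE, adjusted p = 4.93e-08). In X376R it was 9.73-fold lower than in Parental (-3.28 ± 0.14, adjusted p = 3.08e-11). The direct contrast put X376R 2.47-fold below PF1066R (-1.30 ± 0.14, adjusted p = 4.06e-06). On the X376R arrays DUSP5 was above background, but not far: the limit there was 83.0 to 88.2 units. The size of its X376R change thus depends on the background correction. From Parental it was -3.055 without correction and -3.96 with external controls as negative controls.

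DUSP6, the ERK phosphatase of the cytoplasm, was at 11.01, 11.16 and 11.19 in Parental, 9.80, 9.67 and 10.03 in PF1066R and 8.77, 8.84 and 8.46 in X376R. As with DUSP5, each line lay apart from the next, and every step went down. Its signals before processing were 2492 to 3851 units in Parental, 659 to 1143 in PF1066R and 278 to 398 in X376R. The gene was 2.43-fold lower in PF1066R than in Parental (-1.28 ± 0.13, adjusted p = 1.67e-06) and 5.38-fold lower in X376R (-2.43 ± 0.13, adjusted p = 2.76e-10). X376R lay 2.21-fold below PF1066R (-1.14 ± 0.13, adjusted p = 4.59e-06). A further DUSP6 probe, annotated to another transcript of the gene, was tested in a fit over the 26814 probes that passed the background filter. It was at 9.41, 9.34 and 9.29 in Parental, 7.68, 7.46 and 7.85 in PF1066R and 6.99, 6.92 and 6.63 in X376R. It gave the same order of lines, and its changes of -1.69, -2.50 and -0.81 were all called.

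DUSP4, a nuclear phosphatase that acts on ERK and also on JNK and p38, had weaker signals. Its levels were 7.12, 6.98 and 6.55 in Parental, 6.32, 6.43 and 6.45 in PF1066R and 5.98, 6.19 and 5.82 in X376R. The lines did not overlap, but the nearest arrays of Parental and PF1066R were close, at 6.55 and 6.45. DUSP4 was lower in PF1066R than in Parental by -0.48 ± 0.14 (adjusted p = 0.0213). It was below background on every X376R array, where its signal was 73.4 to 88.1 units. The change of -0.89 ± 0.14 (adjusted p = 0.000112) therefore stands for a mean level at least 1.66-fold lower than Parental. This bound compares means and takes no account of their sampling error. Against PF1066R the same bound on the means was 1.19-fold. The change of -0.41 ± 0.14 there was not called (adjusted p = 0.0572, 95% interval -0.70 to -0.11), so a drop of that size is not established. The call of PF1066R against Parental was lost without Parental replicate 1 (-0.36, adjusted p = 0.118), Parental replicate 2 (-0.43, adjusted p = 0.0743) or PF1066R replicate 1 (-0.44, adjusted p = 0.0824). It was also lost with the mean of the passing probes (-0.26, adjusted p = 0.0934) and in the authors' log2 table with 2 arrays a line (-0.30, adjusted p = 0.301). The difference between the resistant lines was called without Parental replicate 1 (-0.40, adjusted p = 0.0452), Parental replicate 3 (-0.38, adjusted p = 0.0339) or X376R replicate 2 (-0.51, adjusted p = 0.033), and with external controls as negative controls, where it was larger (-0.85, adjusted p = 0.0103). A further DUSP4 probe, above background on 3 of 9 arrays, changed by -0.04, -0.21 and -0.17 and was called in none of the comparisons (limma, unadjusted p = 0.712, 0.0587 and 0.117).

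Across all 13769 genes, 2.56% had all Parental arrays above all PF1066R arrays and these above all X376R arrays, as the 3 phosphatases did. For DUSP4 the X376R values in that order were below background. Called lower in all 3 comparisons were DUSP5 and DUSP6, against 1.19% of all genes.

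**Figure D2:**
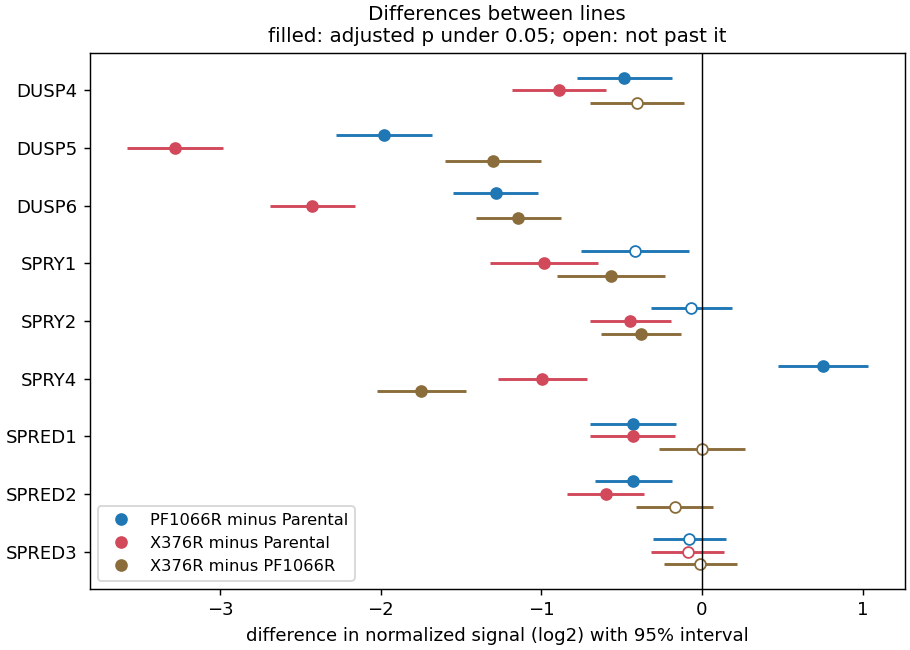
Differences between lines in normalized signal (log2, horizontal axis) for the 9 genes, with 95% intervals from the limma fit. Filled points have an adjusted p under 0.05 and open points do not, and SPRY4 is the 1 gene with a filled point to the right of 0, at 0.75 for PF1066R minus Parental.

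DUSP6 had the largest change among the members for which the RefSeq promoter table (GRCh38.p14) has an entry. Bases before the annotated start are therefore shown for it. The start sites searched were 12, of 7 of the 9 genes, and DUSP4 and DUSP5 are named only. The 250 bases before the DUSP6 start, on the minus strand at chr12:89352502-89352751, read 5′ to 3′:
DUSP6: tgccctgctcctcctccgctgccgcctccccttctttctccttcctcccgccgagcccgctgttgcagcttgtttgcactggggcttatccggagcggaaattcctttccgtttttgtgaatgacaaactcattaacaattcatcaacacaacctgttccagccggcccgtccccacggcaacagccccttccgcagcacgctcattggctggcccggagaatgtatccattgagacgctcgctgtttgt
Binding motifs of factors that act below ERK were searched on both strands of the 250 bases before each start: CCGGAAG for ETS factors, TGANTCA for AP-1 and TGACGTCA, the cyclic AMP response element (CRE). No match overlapped another in the members' windows. Among 35116 promoters of the table, 8.52% held the ETS letters, 6.57% the AP-1 letters and 1.65% the CRE letters. Of the 12 start sites of the members, 1 held the ETS letters, 1 the AP-1 letters and 0 the CRE letters. The DUSP6 window held none of these letters. A match is a description of the sequence, not evidence of a bound site, and the absence of one says only that these letters are not in that window.

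The Sprouty genes did not move as a group in PF1066R, where 1 was called higher and 2 were not called, while in X376R all 3 were called lower than in Parental and than in PF1066R. SPRY4, an inhibitor of RAS activation by growth factor receptors, was at 7.35, 7.59 and 7.22 in Parental, at 7.95, 8.12 and 8.35 in PF1066R and at 6.58, 6.29 and 6.31 in X376R. No array of one line overlapped another line, with PF1066R highest and X376R lowest. SPRY4 was 1.69-fold higher in PF1066R than in Parental (0.75 ± 0.13, adjusted p = 0.000605) and 1.99-fold lower in X376R (-0.99 ± 0.13, adjusted p = 2.04e-05). X376R lay 3.36-fold below PF1066R (-1.75 ± 0.13, adjusted p = 4.27e-08). The signals before normalization overlapped between Parental (216 to 243 units) and PF1066R (236 to 324) and were 91.4 to 106 in X376R. The background limit on the X376R arrays was 83.0 to 88.2 units, so SPRY4 was close to it there. The size of its X376R change depends on the background correction. From Parental it was -0.85 without correction and -1.55 with external controls as negative controls.

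The 4 passing probes of SPRY4 differed among themselves. Its 3 further passing probes changed by -0.04, 0.06 and 0.12 in PF1066R minus Parental, with adjusted p of 0.92, 0.858 and 0.66 over all probes. In X376R minus Parental they changed by -0.12, -0.12 and -0.31, and none was called (limma, unadjusted p = 0.339, 0.304 and 0.0254). In X376R minus PF1066R 1 of them, ILMN_1797596, was called lower, by -0.43 ± 0.13 (adjusted p = 0.0335). These probes were dim: they were above background on 3, 5 and 7 of the 9 arrays in the same order, and 94.8 to 136 units was the range of ILMN_1797596 in Parental. With the mean of the 4 passing probes in place of 1 probe, the rise in PF1066R was 0.22 and was not called (adjusted p = 0.0929). The changes of X376R from Parental (-0.38) and from PF1066R (-0.61) were smaller and still called.

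SPRY1, an inhibitor of RAS and ERK signalling needed for kidney development in the mouse, was at 8.84, 8.25 and 8.88 in Parental, 8.52, 7.95 and 8.25 in PF1066R and 7.65, 7.72 and 7.64 in X376R. Parental and PF1066R overlapped, and the X376R arrays lay below both and close together. The change in PF1066R minus Parental was -0.42 ± 0.16 and was not called (adjusted p = 0.0832, 95% interval -0.75 to -0.08). It was called without Parental replicate 2 (-0.62, adjusted p = 0.00711) or PF1066R replicate 1 (-0.55, adjusted p = 0.0382), and without PF1066R replicate 2 it was -0.27 (adjusted p = 0.344). In X376R SPRY1 was 1.98-fold lower than in Parental (-0.98 ± 0.16, adjusted p = 0.000163) and lower than in PF1066R by -0.57 ± 0.16 (adjusted p = 0.0215). The call between the resistant lines was lost without PF1066R replicate 1 (-0.42, adjusted p = 0.124), PF1066R replicate 3 (-0.56, adjusted p = 0.0623) or X376R replicate 1 (-0.56, adjusted p = 0.0613). A further SPRY1 probe gave -0.30 (adjusted p = 0.141), -0.79 (adjusted p = 0.000177) and -0.49 (adjusted p = 0.0167), the same calls. SPRY1 had the only ETS letters among these promoters, 67 bases before its second listed start. They are in capitals in the 30 bases at chr4:123398308-123398337, plus strand of GRCh38.p14:
SPRY1: gccctccgcagCCGGAAGggggccgcgggg

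SPRY2, which binds the adaptor GRB2 and the ubiquitin ligase CBL, had the smallest changes among the Sprouty genes in each comparison. It was at 8.27, 8.23 and 8.15 in Parental, 8.17, 8.15 and 8.13 in PF1066R and 7.51, 7.81 and 7.995 in X376R. Parental and PF1066R overlapped and the X376R arrays lay below both, more widely spread. PF1066R differed from Parental by -0.07 ± 0.12, with an adjusted p of 0.794 and a 95% interval of -0.32 to 0.19. X376R was lower than Parental by -0.45 ± 0.12 (adjusted p = 0.00898) and lower than PF1066R by -0.38 ± 0.12 (adjusted p = 0.0381). X376R replicate 1 was the lowest array, and without it the changes were -0.32 (adjusted p = 0.0596) and -0.25 (adjusted p = 0.191). Leaving out any 1 PF1066R array or X376R replicate 2 also ended the call between the resistant lines, at changes of -0.37, -0.38, -0.39 and -0.40. In the authors' log2 table with 2 arrays a line neither X376R change was called, at -0.27 (adjusted p = 0.157) and -0.23 (adjusted p = 0.314).

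**Figure D3:**
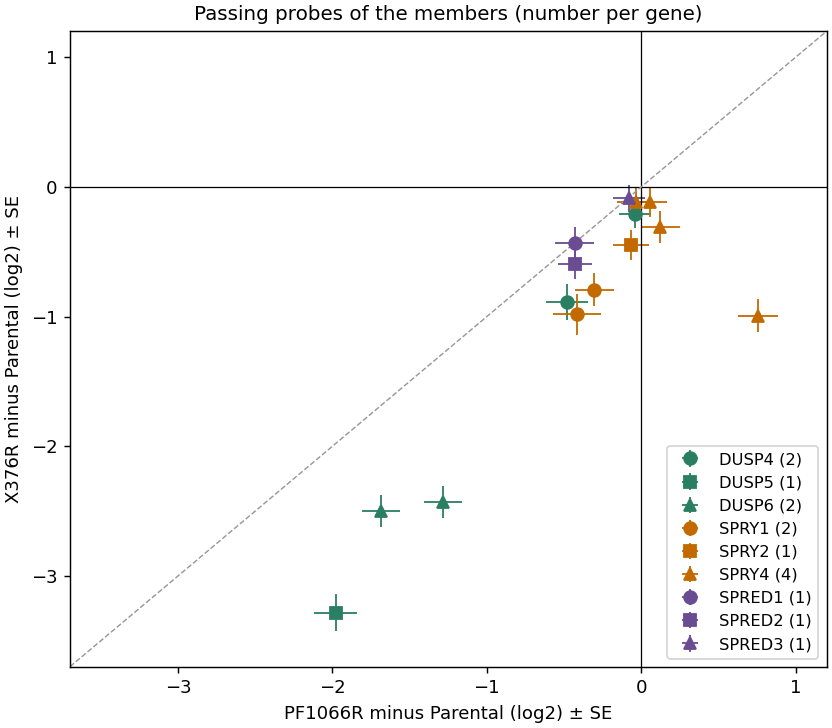
Change in X376R (vertical axis, log2) against change in PF1066R (horizontal axis, log2), both from Parental, for the 15 passing probes of the 9 genes, with ± SE bars and a dashed line of equal change. Both axes share the Parental arrays. Both DUSP6 probes and the DUSP5 probe lie far below 0 on both axes, and 1 of 4 SPRY4 probes lies to the right, at 0.75.

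SPRED1 and SPRED2 were lower in both resistant lines, and no Spred gene was called between those lines (limma, unadjusted p = 0.997, 0.154 and 0.928 in the order of their names). SPRED1, the member of this family that is mutated in Legius syndrome, was at 8.74, 8.54 and 8.84 in Parental, 8.51, 8.07 and 8.23 in PF1066R and 8.20, 8.22 and 8.40 in X376R. Both resistant lines lay below Parental, the nearest PF1066R array by a narrow margin, and overlapped each other. SPRED1 was lower by -0.43 ± 0.13 in PF1066R (adjusted p = 0.0235) and by -0.43 ± 0.13 in X376R (adjusted p = 0.0159), and the lines differed by -0.00 with a 95% interval of -0.27 to 0.27. The PF1066R call was lost without Parental replicate 1 or 3 or PF1066R replicate 2 or 3 (highest adjusted p = 0.126), and the X376R call without Parental replicate 3 or X376R replicate 1 (highest adjusted p = 0.0807). In the authors' log2 table the PF1066R change was -0.35 and not called (adjusted p = 0.072), and with 2 arrays a line from that table the X376R change was -0.36 and not called (adjusted p = 0.108).

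SPRED2, which like SPRED1 binds neurofibromin, was at 7.41, 7.50 and 7.51 in Parental, 6.98, 6.96 and 7.19 in PF1066R and 6.70, 7.03 and 6.89 in X376R. Parental lay above both resistant lines, which overlapped. SPRED2 was lower by -0.43 ± 0.11 in PF1066R (adjusted p = 0.0132) and by -0.60 ± 0.11 in X376R (adjusted p = 0.000671). The resistant lines differed by -0.17 ± 0.11 (adjusted p = 0.378, 95% interval -0.41 to 0.07). The PF1066R call was lost without Parental replicate 3, PF1066R replicate 1 or PF1066R replicate 2, at a highest adjusted p of 0.0566. It was also lost in the authors' log2 table with 2 arrays a line (-0.40, adjusted p = 0.0744). SPRED2 is the Spred gene with the lowest adjusted p, and the 250 bases before its outermost annotated start, on the minus strand at chr2:65432600-65432849 of GRCh38.p14, held none of the letters searched:
SPRED2: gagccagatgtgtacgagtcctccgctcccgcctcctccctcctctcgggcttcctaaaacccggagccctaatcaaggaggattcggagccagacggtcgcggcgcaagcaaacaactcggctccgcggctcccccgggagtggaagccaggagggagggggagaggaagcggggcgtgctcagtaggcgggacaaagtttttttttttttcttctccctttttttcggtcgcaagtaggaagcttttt

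SPRED3, studied less than the other Spred proteins, was at or near background. Its levels were 6.22, 6.08 and 6.04 in Parental, 6.02, 6.18 and 5.91 in PF1066R and 6.08, 5.96 and 6.03 in X376R. All lines overlapped, and the probe was above background on 2, 1 and 1 arrays of the lines. The changes of -0.08, -0.09 and -0.01 were not called (adjusted p = 0.713, 0.621 and 0.974), and their 95% intervals ran from -0.31 to 0.15, from -0.32 to 0.14 and from -0.24 to 0.22. At this signal a change of SPRED3 was not detectable. A further SPRED3 probe and a further SPRY1 probe were each above background on 2 of 9 arrays, did not pass the filter and were not tested. SPRED3 had the only AP-1 letters among these promoters, 60 bases before its first listed start, in capitals in the 30 bases at chr19:38389720-38389749, plus strand of GRCh38.p14:
SPRED3: ccgttgctgggTGACTCAgtgagctttgca

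Over the 9 arrays the members moved together to different degrees. Pearson's r of the log2 levels was 0.97 between DUSP5 and DUSP6, 0.92 between DUSP6 and SPRED2 and 0.91 between DUSP4 and DUSP6. It was lowest, at -0.02, between SPRY4 and SPRED1. These correlations rest on 3 lines and on arrays that share a scaling, and are given as a description. The genes whose levels followed those of DUSP6 most closely over the 9 arrays were ZNF232 (r = 0.995), BIK (0.995), TFB1M (0.990), COX10 (0.989) and TNFRSF10B (0.988). BIK, which encodes a pro-apoptotic BH3-only protein, differed from Parental by -0.75 and -1.38, and TNFRSF10B, a death receptor for TRAIL, by -1.16 and -2.28. The genes most like SPRY4 were IFI27 (0.987), CEACAM5 (0.985), RNF24 (0.979), VDAC1 (0.979) and TEX101 (0.977). IFI27, an interferon-induced gene, differed from Parental by 1.40 in PF1066R and -1.78 in X376R, and CEACAM5, the carcinoembryonic antigen, by 1.15 and -1.30.

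The other genes of the pathway did not share one direction. Of 9 other MAP kinase phosphatases 8 were tested, 1 was called higher in PF1066R and 3 in X376R, and the rest were not called. Among all genes, 9.09% were called higher in PF1066R and 13.9% in X376R. With 8 genes, the PF1066R count is near that share. DUSP1, an early response phosphatase of p38, JNK and ERK, was 2.34-fold higher in X376R than in Parental (1.23 ± 0.13, adjusted p = 1.57e-06), against 0.23 in PF1066R (adjusted p = 0.267). X376R exceeded PF1066R in DUSP1 by 1.00 ± 0.13 (adjusted p = 2.76e-05), opposite to DUSP5 and DUSP6. DUSP14 was also higher in X376R, by 0.46 ± 0.11 over Parental (adjusted p = 0.00391) and by 0.43 ± 0.11 over PF1066R (adjusted p = 0.0112). DUSP3 was higher in both lines, by 0.42 ± 0.12 (adjusted p = 0.0195) and 0.35 ± 0.12 (adjusted p = 0.036). The medians of the list were 0.12, 0.06 and -0.04.

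Among 20 other negative regulators of receptor and RAS signalling, 14 were tested. In PF1066R 4 were called higher and 2 lower, in X376R 4 higher and 3 lower, and 2 were lower in X376R than in PF1066R. Among all genes, 9.09% were called higher and 9.37% lower in PF1066R, and 13.9% and 14.2% in X376R. Between the resistant lines 8.08% were called lower. With 14 genes, the lower counts are near these shares. ERRFI1, an inhibitor of the EGF receptor family, was 4.25-fold lower in PF1066R (-2.09 ± 0.13, adjusted p = 6.73e-09) and 3.88-fold lower in X376R (-1.96 ± 0.13, adjusted p = 4.08e-09). SPSB1 was lower as well, by -0.75 ± 0.14 (adjusted p = 0.00101) and -0.64 ± 0.14 (adjusted p = 0.00218). IL17RD, an inhibitor of FGF receptor signalling, was higher in PF1066R by 0.76 ± 0.15 (adjusted p = 0.00195) and in X376R by 0.48 (adjusted p = 0.0262). PEBP1 was likewise higher in both, by 0.59 (adjusted p = 0.00285) and 0.69 ± 0.13 (adjusted p = 0.000477). CBLB and CBL, ubiquitin ligases of activated receptors, were lower in X376R than in PF1066R by -0.47 ± 0.12 (adjusted p = 0.0111) and -0.38 ± 0.12 (adjusted p = 0.0447). The list's medians were 0.05, 0.01 and 0.03.

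Of 20 genes of the cascade from receptor adaptors to ERK 13 were tested, with 1 called higher in PF1066R, and 2 higher and 1 lower in X376R. In PF1066R that is near the share called among all genes, 9.37% lower and 9.09% higher. In X376R it is near that share as well, 14.2% lower and 13.9% higher. MAPK3, which encodes the kinase ERK1, was higher by 0.69 ± 0.11 in PF1066R (adjusted p = 0.00029) and by 0.85 ± 0.11 in X376R (adjusted p = 1.81e-05). PTPN11, the phosphatase SHP2 that activates RAS, was lower in X376R by -0.57 ± 0.16 (adjusted p = 0.0129), and RPS6KA1, a kinase activated by ERK, was higher there by 0.33 ± 0.11 (adjusted p = 0.031). Between the resistant lines limma called 0 of the 13, and 1 had an unadjusted p under 0.05. Of 10 other MAP kinases and their kinases 7 were tested, with 1 called higher and 1 lower in each resistant line. With 7 genes, these counts too are near the shares of all genes. MAPK13, a p38 kinase, was higher by 0.91 ± 0.10 in PF1066R (adjusted p = 8.15e-06) and by 0.42 ± 0.10 in X376R (adjusted p = 0.00489), and lower in X376R than in PF1066R by -0.49 ± 0.10 (adjusted p = 0.00264). MAP2K3, which activates p38, was lower by -0.80 ± 0.11 (adjusted p = 9.19e-05) and -1.11 ± 0.11 (adjusted p = 1.26e-06).

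Transcription factors and early genes that ERK induces were mostly lower in both lines. Of 11 genes 10 were tested. In PF1066R 7 were called lower, and in X376R 7 lower and 1 higher. Among all genes, 9.37% were called lower in PF1066R, and 14.2% lower and 13.9% higher in X376R. Between the resistant lines 8.08% of all genes were called lower and 7.92% higher. PHLDA1 was 4.69-fold lower in PF1066R (-2.23 ± 0.13, adjusted p = 6.22e-09) and 8.28-fold lower in X376R (-3.05 ± 0.13, adjusted p = 3.23e-11). The zinc finger factor EGR1 was lower in PF1066R by -1.13 ± 0.11 (adjusted p = 2.21e-06) and MYC by -0.95 ± 0.14 (adjusted p = 0.00016). In X376R the ETS factor ETV5 was lower by -1.22 ± 0.12 (adjusted p = 4.65e-07) and IER3 by -1.21 ± 0.13 (adjusted p = 3.15e-06). Between the resistant lines 3 were lower and 2 higher in X376R: PHLDA1 was lower by -0.82 ± 0.13 (adjusted p = 0.000329) and ETV5 by -0.81 ± 0.12 (adjusted p = 8.9e-05), while FOS was higher by 1.15 ± 0.14 (adjusted p = 2.17e-05). The medians were -0.58, -0.64 and -0.05. PHLDA1 and ETV5 thus had the order of lines seen for DUSP5 and DUSP6. FOS, higher in X376R than in Parental by 0.67 (adjusted p = 0.00201), and EGR1 did not. EGR1 was below Parental in X376R by -0.61 (adjusted p = 0.00053). It exceeded its PF1066R level there by 0.52 ± 0.11 (adjusted p = 0.00392).

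**Figure D4:**
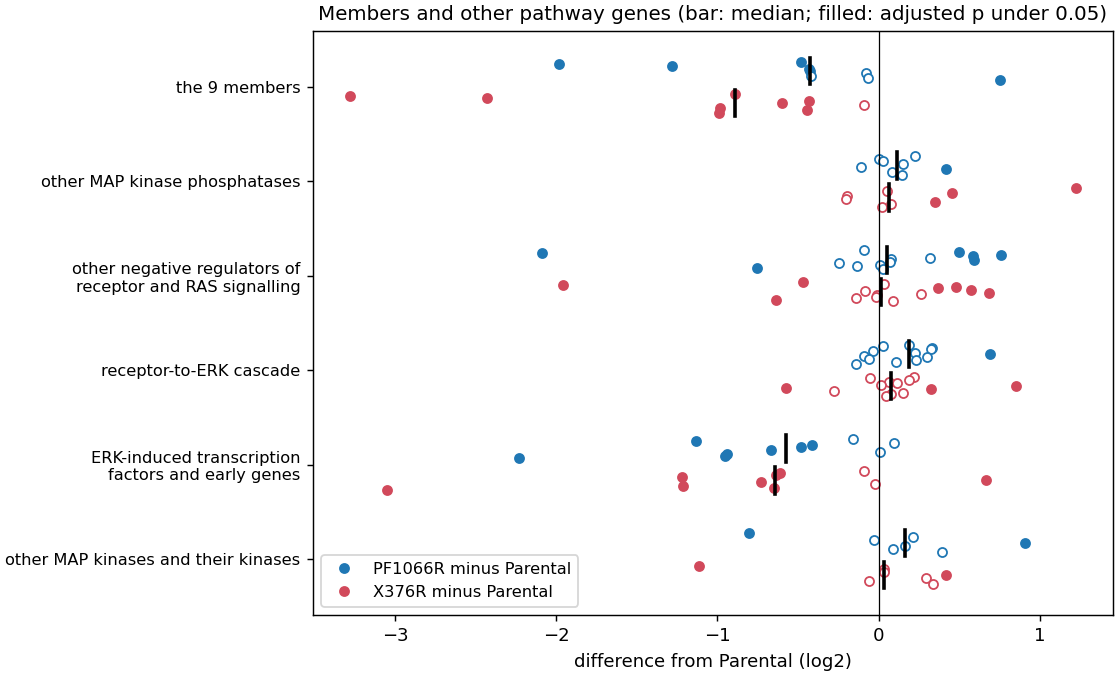
Difference from Parental in normalized signal (log2, horizontal axis) for the 9 members and for 5 lists of other pathway genes, for PF1066R and X376R. Points are genes, filled where the adjusted p is under 0.05, and black bars are list medians. The members' medians are -0.43 and -0.89 and those of the ERK-induced genes -0.58 and -0.64, while the other lists have medians above 0.

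Array brightness moved with the lines, from 254 units in Parental to 173 in X376R. Each difference was therefore also fitted with brightness as a term, taken as the mean log2 signal of an array before normalization. It was 6.70 to 6.74 on the X376R arrays and 6.89 to 7.13 on the Parental arrays, without overlap. Brightness and line cannot be told apart there, and a call held or lost with the term does not separate them. Of the calls in PF1066R, DUSP4, DUSP5, DUSP6 and SPRY4 held, and SPRED1 (-0.20, adjusted p = 0.538) and SPRED2 (-0.43, adjusted p = 0.114) did not. Of those in X376R 4 held, DUSP4, DUSP5, DUSP6 and SPRY4, and those of SPRY1 (-0.43, adjusted p = 0.274), SPRY2 (-0.55, adjusted p = 0.112), SPRED1 (-0.08, adjusted p = 0.885) and SPRED2 (-0.60, adjusted p = 0.0697) were lost. Between the resistant lines SPRY1 (-0.38, adjusted p = 0.106) and SPRY2 (-0.42, adjusted p = 0.0574) lost their calls, and DUSP4 was called (-0.53, adjusted p = 0.0217). Standard errors were wider with the term, for SPRY2 in X376R minus Parental 0.21 against 0.12. There the SPRY2 change was larger than without the term (-0.45), and that of SPRED2 was -0.60 both ways. Those of SPRY1 and SPRED1 were nearer to 0 than without the term (-0.98 and -0.43). DUSP5 and DUSP6 were called lower in all 3 comparisons under each of the 20 alternatives run, leaving out any 1 array included. Over these, the X376R change of DUSP5 ran from -3.96 to -3.04 and that of DUSP6 from -3.05 to -2.29.

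Median centring in place of quantile normalization made several changes larger and put the median change of all genes at -0.12 in PF1066R and -0.19 in X376R. The X376R change from Parental went to -1.01 for SPRY2, -1.02 for SPRED1, -1.02 for SPRED2 and -1.54 for SPRY1, each over 1.5 times the value above and still called. In PF1066R SPRED1 went to -0.81 and SPRED2 to -0.75, both called, SPRY4 to 0.44 (adjusted p = 0.0481) and SPRY1 to -0.79, not called (adjusted p = 0.0833). Between the resistant lines SPRY1 (-0.75, adjusted p = 0.165) and SPRY2 (-0.57, adjusted p = 0.0506) were not called. With external controls as negative controls the X376R changes of DUSP4 and SPRY4 were -1.65 and -1.55 and the PF1066R change of DUSP4 was -0.80, all called.

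**Figure D5:**
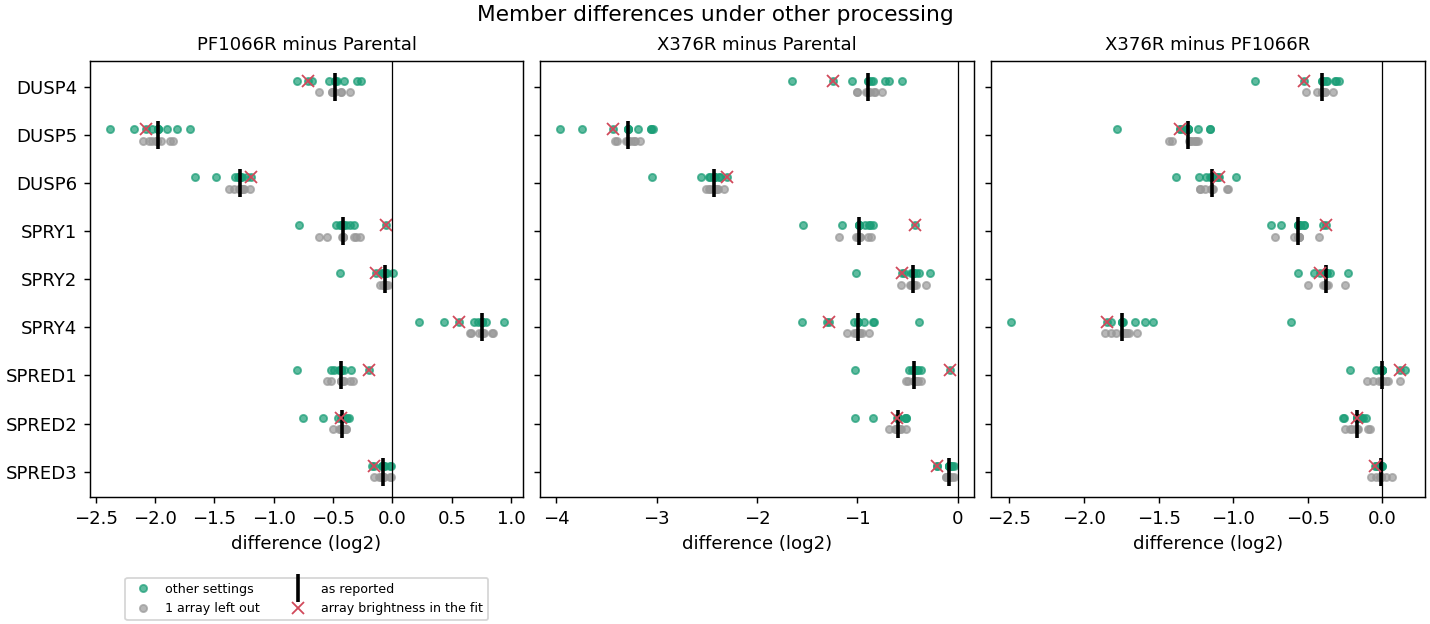
Differences between lines (log2, horizontal axis, with its own range in each panel) of the 9 genes as reported (black bar), under other settings (green), with array brightness in the fit (cross) and with 1 array left out (grey). DUSP5 and DUSP6 stay left of 0 in every panel, while the crosses of SPRY1 and SPRED1 lie nearer to 0 than the reported differences from Parental.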

How the data were processed

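RNA of 9 H3122 samples was measured on Illumina arrays. Per the deposited files, 1 table lists each array's probe intensities, which are linear, and another lists log2 values, which were normalized by the authors. R 2.15 is named in the submitters' processing notes, and the sources used here name no other upstream step. The replicate 1 values of the log2 table have another distribution than the rest, so that table served as an alternative alone.

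Of 47323 probes 1 had no value, and 30112 had 1 gene symbol. Signals were corrected with limma 3.58.1 (R 4.3.3; normexp, offset 50), quantile-normalized without control probes and put on the log2 scale. The table has no detection p, so a probe passed where it exceeded the highest of 92 control probes on at least 3 of 9 arrays. These probes carry no name in the tables and were taken for external controls from their IDs. The passing probe with the highest mean stood for a gene, and all 9 members were tested among 13769 genes. A limma model with 1 mean per line (6 residual and 10.7 prior degrees of freedom) gave the 3 comparisons. A bound sets the bright line's mean against, per dim array, the probe's own value or, if higher, the lowest value above background. Background correction, normalization and fit were run on simulated data with changes in bright genes only. Changes under 1 log2 unit, changes in dim genes, the filter, the choice of probe and the bound were not simulated.

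The text names all members, and from each list up to 3 called genes by size of change, with 5 genes most like DUSP6 and SPRY4. FOS, EGR1 and IL17RD in X376R, DUSP1 and PEBP1 in PF1066R, and PECAM1 were added after their values were seen. The members, lists and tests were chosen with earlier results of these data known. Alternatives were background correction, normalization, filter, choice of probe, the authors' table, brightness, a replicate block and leaving out each array.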

Additional observations from a re-analysis of the deposited data

Results flagged for a closer look

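The changes of the resistant lines from Parental differed for 5 of the 9 genes, as tested by the direct contrast of X376R with PF1066R (limma, adjusted over all genes). The difference was -1.75 ± 0.13 (SE) for SPRY4, which was higher than Parental in PF1066R and lower in X376R, on all 3 arrays of each line (adjusted p = 4.27e-08). That SPRY4 value rests on 1 of 4 passing probes. The other probes changed by -0.04, 0.06 and 0.12 from Parental in PF1066R and were not called, and with the mean of the 4 the rise was 0.22 (adjusted p = 0.0929) and the difference between the resistant lines -0.61 (adjusted p = 0.000194). It was -1.30 ± 0.14 for DUSP5 (adjusted p = 4.06e-06) and -1.14 ± 0.13 for DUSP6 (adjusted p = 4.59e-06), both lower in X376R on 3 of 3 arrays. It was -0.57 ± 0.16 for SPRY1 (adjusted p = 0.0215) and -0.38 ± 0.12 for SPRY2 (adjusted p = 0.0381), where the arrays did not overlap either. Over the alternatives the adjusted p reached 0.254 for SPRY1 and 0.314 for SPRY2, and 0.000194, 0.00042 and 0.00292 for SPRY4, DUSP5 and DUSP6.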

How the results depend on the processing

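Of the 27 member results, 12 kept their direction and their side of the threshold under every alternative run: 9 that leave out 1 array and 11 others, 1 of them chosen after the data were seen (the authors' log2 table without its replicate 1 columns). Called genes numbered 2541, 3860 and 2204 for PF1066R against Parental, X376R against Parental and X376R against PF1066R, and called members 6, 8 and 5. With brightness in the fit 1254 and 1396 genes were called in the first and second comparison, and 4 members in the second. With the authors' table and 2 arrays a line 1357, 2531 and 1250 genes were called, and 3 members in the last comparison, with fewer samples by construction. Median centring gave 978 genes and 3 members between the resistant lines. It moved the median of all genes to -0.12, -0.19 and -0.06 and the share of higher calls from 49.2%, 49.5% and 49.5% to 8.8%, 8.4% and 28.1%, and the cause was not tested. Leaving out 1 array gave 1844 to 2805, 3070 to 3863 and 1606 to 2187 genes and 4 to 6, 6 to 8 and 3 to 6 members. The lowest count between the resistant lines, 3, came without PF1066R replicate 1, PF1066R replicate 3 or X376R replicate 1.

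Reversals concerned uncalled values near 0. SPRY2 in PF1066R was 0.0045 in the authors' table. SPRED1 between the resistant lines was 0.0010 with external controls as negative controls, 0.12 with brightness and 0.15 in the authors' table with 2 arrays a line, and -0.10 to 0.12 with 1 array left out. SPRED3 was 3.8e-05 with median centring, 0.00093 with cyclic loess and -0.074 to 0.063 with 1 array left out. With external controls as negative controls SPRED1 was not called in either line (adjusted p = 0.0768 and 0.0549). Where a probe had to be above background on all 9 arrays, DUSP4 and SPRED3 were not tested.

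With the replicate block 2879, 4173 and 2469 genes and 7, 8 and 6 members were called, adding SPRY1 in PF1066R (adjusted p = 0.0312) and DUSP4 between the resistant lines (adjusted p = 0.0306). The labels leave the meaning of a replicate number unstated. Of 9 pairs of arrays with the same number 5 had deviations that correlated above 0.1 (range -0.05 to 0.22). Pairs from different lines with different numbers ranged from -0.23 to 0.14, and 5 of 9 arrays correlated best with their own number. The reported fit did not pair the samples, and whether a number marks a shared preparation was not tested.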
